A study of Mus musculus with 36 samples.

Results

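Pax5 bound 2281 regions of the pro-B cell genome in all 3 of its forms, wild-type Pax5 (Pax5Wt), Pax5K198Q and Pax5K198R. These regions were 21.2% of the 10760 regions that at least 1 form bound. A peak was kept where it shared at least 1 bp with a peak of the other replicate of the same form, the kept peaks were merged, and a region counted here when it overlapped the kept peaks of every form. The regions were thus chosen by the measured presence of peaks in the 6 lists. Peak presence and enrichment are therefore described without a test.

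The study asked how acetylation of 1 lysine of Pax5, which the deacetylase SIRT7 removes, changes the binding and the activity of Pax5. In Pax5K198Q this lysine is replaced by glutamine, which resembles acetyl-lysine, and in Pax5K198R by arginine, which cannot be acetylated. Chromatin immunoprecipitation with an antibody to Pax5 (ChIP–seq) was done in Pax5-/- pro-B cells transduced with Pax5Wt, Pax5K198Q or Pax5K198R, with 2 replicates a form. RNA-seq was done in Pax5-/- cells with empty vector (EV) or each form, and in a separately normalized table in Sirt7-/- cells with EV, Pax5Wt or Pax5K198R and in wild-type (Wt) cells with EV, with 2 replicates a group. All these cells were cultured on OP9 stromal feeder cells with IL-7, SCF and FLT3-L. The labels call them bone marrow pro-B cells, while the study's methods take the Pax5-/- progenitors, of the C57BL/6 strain, from fetal liver and the Sirt7-/- and Wt cells from bone marrow of adult, mainly 129Sv, mice. Every form came from a retroviral vector, so its amount is not that of the native gene, and the Sirt7-/- and Wt cells also carried their own Pax5 gene. The study counts each mouse as 1 replicate and states that sequencing replicates were made on different days. Neither it nor the labels tie a replicate number to an animal or a day, and p-values measure the spread between these libraries.

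Pax5 commits lymphoid progenitors to the B lineage. Through its paired domain it binds a long and loosely conserved DNA site, switches on genes of B cell receptor signalling such as Cd79a and Blnk, and silences genes of other lineages. It works beside EBF1, E2A (which binds E-boxes), RUNX1 and PU.1 at many B cell enhancers and promoters.

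Some of the regions with the highest enrichment held a short match to the core of the Pax5 site, and others did not. The 4 windows centred on a summit that are printed first are the strongest regions with a core GCGTGAC or GCATGAC, on either strand, close to the summit. They are given on the plus strand of mm10 (GRCm38), and capitals mark the core.
Pabpc1 promoter, chr15:36609202-36609322: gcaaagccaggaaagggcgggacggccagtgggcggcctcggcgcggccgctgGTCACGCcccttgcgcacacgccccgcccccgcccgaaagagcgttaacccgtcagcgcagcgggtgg
intergenic, nearest gene Smu1, chr4:40774410-40774530: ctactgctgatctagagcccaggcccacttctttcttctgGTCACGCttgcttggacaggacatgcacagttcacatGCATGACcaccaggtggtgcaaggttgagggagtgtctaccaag
Dusp3 promoter, chr11:101984835-101984955: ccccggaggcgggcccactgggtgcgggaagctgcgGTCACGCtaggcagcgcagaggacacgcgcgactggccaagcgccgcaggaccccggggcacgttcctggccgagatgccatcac
intergenic, nearest gene Dnase1, chr16:4029427-4029547: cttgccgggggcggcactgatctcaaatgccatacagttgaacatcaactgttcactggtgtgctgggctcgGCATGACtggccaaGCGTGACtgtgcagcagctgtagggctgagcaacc
The Dusp3 window lies at the start sites of Dusp3 and of Cfap97d1. The windows near Smu1 and Dnase1 lie 16547 bp and 7483 bp from the nearest start site and hold 2 cores each. The 3 further windows are printed because they lie at promoters of B cell receptor genes and hold no 7-letter core. Capitals mark a RUNX match TGTGGTT and an E-box CAGCTG at Igll1 and an EBF1 match at Cd22, and of the motifs searched the Blnk window held only CATGAC, the last 6 letters of a core, on the minus strand.
Igll1 promoter, chr16:16864065-16864185: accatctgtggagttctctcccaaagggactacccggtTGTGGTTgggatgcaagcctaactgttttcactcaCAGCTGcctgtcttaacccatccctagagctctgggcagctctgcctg
Cd22 promoter, chr7:30879064-30879184: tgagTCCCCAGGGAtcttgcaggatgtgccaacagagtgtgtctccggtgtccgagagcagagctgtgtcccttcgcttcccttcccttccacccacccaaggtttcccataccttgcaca
Blnk promoter, chr19:40994157-40994277: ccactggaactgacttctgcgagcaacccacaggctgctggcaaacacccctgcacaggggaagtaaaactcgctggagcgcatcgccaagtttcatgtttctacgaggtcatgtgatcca
A match is a description of the letters and not a measured binding site. Absence of these letters from a window says nothing about Pax5 at that place.

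Before the results, 1 list needs a remark. Peaks of the list labelled K198R replicate 2 are named with the prefix R3 within the file, whereas P1, P2, Q1, Q2 and R1 are used in the others. It was taken as replicate 2, by its label. Without it, with K198R replicate 1 taken alone, 2293 regions were bound by all 3 forms.

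K198Q set the limit of this group. Its lists held 3750 and 3957 peaks, against 10646 and 11830 for Pax5Wt and 12158 and 13997 for K198R. Of the 2382 regions of K198Q, 95.8% were also bound by both other forms, whereas the shared regions made up 29.5% of the 7720 regions of Pax5Wt and 25.0% of the 9116 regions of K198R. Only 12 regions were kept for K198Q alone, beside 36 shared with Pax5Wt and 53 shared with K198R. The largest other class, Pax5Wt with K198R, held 3807 regions. Of these, 1766 (46.4%) had a K198Q peak in 1 of the 2 K198Q lists, so that agreement between the K198Q replicates decided whether they counted. Another 22 had K198Q peaks in both lists that did not overlap, and 2019 (53.0%) had none.

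Fold enrichment is the authors' ratio of ChIP over input at the summit of a peak. In the shared regions its median was 9.83 and 10.1 in the Pax5Wt lists, 6.31 and 6.54 in the K198Q lists and 9.43 and 11.3 in the K198R lists. In the other regions of the same form the medians were 5.62 and 5.85, 4.88 and 5.09, and 5.70 and 6.11. The medians of the shared regions were thus higher, most of all for Pax5Wt and K198R, but the values overlapped widely. In the first Pax5Wt list the 10th percentile of the shared regions, 5.55, lay below the median of the others. The shared regions were also longer, with a median of 625 bp against 402 bp for all other regions. Enrichment is tied to the rule, which asks for a called peak in every list.

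**Figure D1:**
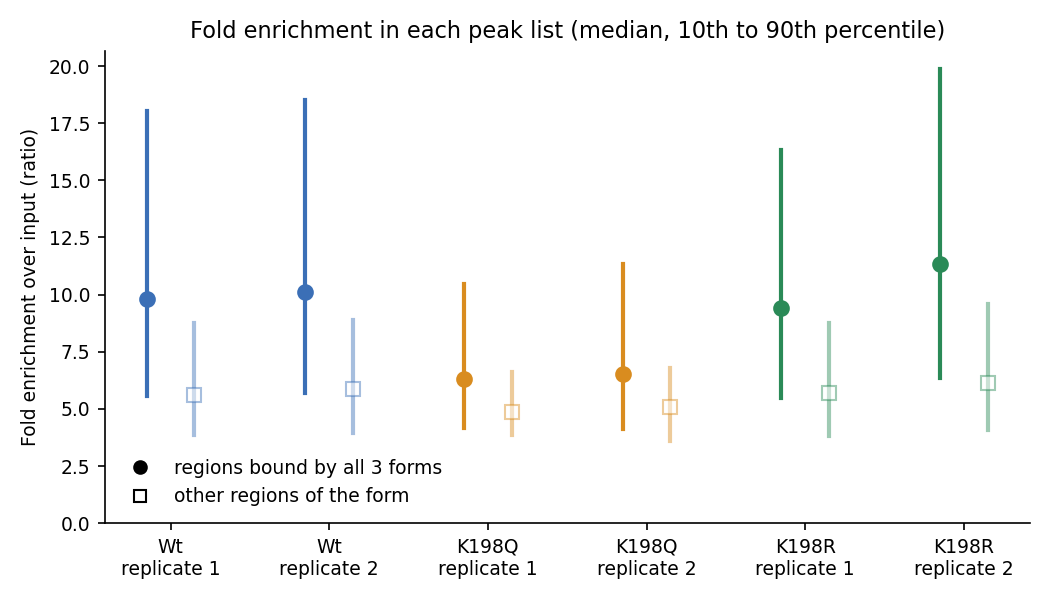
Fold enrichment over input (y axis, linear ratio) in each of the 6 peak lists (x axis). Filled circles are medians over the 2281 regions bound by all 3 forms and open squares are medians over the other regions of that form, with lines from the 10th to the 90th percentile. The medians of the shared regions were 6.31 and 6.54 in the K198Q lists and at least 9.43 in the other lists.

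Within the same regions K198Q was less enriched than Pax5Wt. The median ratio of K198Q to Pax5Wt was 0.658, with 0.446 to 0.973 from the 10th to the 90th percentile. Both K198Q lists lay below both Pax5Wt lists in 1374 regions (60.2%) and above them in 44 (1.93%). K198R matched Pax5Wt more closely, with a median ratio of 1.02, with both lists below in 361 regions (15.8%) and above in 476 (20.9%). The replicates themselves differed by a median ratio of 1.03 for Pax5Wt, 1.04 for K198Q and 1.19 for K198R. Fold enrichment is not scaled between immunoprecipitations. A different yield of the K198Q experiments, a smaller amount of K198Q protein in the cells and weaker binding thus cannot be told apart. In HEK293F cells the study reports a lower level and a shorter half-life of K198Q than of Pax5Wt protein, and the opposite for K198R.

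The summits of the forms lay close together, with a median distance of 25 to 29 bp between lists of different forms and 24 to 31 bp between replicates of a form. The rule asks for overlapping peaks, which by itself limits how far apart the summits can lie. Across the 2281 regions the fold enrichment of 2 lists had a Spearman correlation of 0.397 to 0.574 within a form and of 0.404 to 0.565 between forms, which describes regions and not replicates. Of 4 equal groups of regions by the ratio of K198Q to Pax5Wt, the share at promoters was 47.4% in the lowest and 54.7% in the highest. Median Pax5Wt enrichment was 13.0 in the lowest and 6.79 in the highest, and median K198Q enrichment 5.90 and 6.59. The groups thus differed mainly in Pax5Wt enrichment. Ranked by the lowest enrichment over the 6 lists, the share at promoters was 55.0% in the lowest group and 48.8% in the highest. The part of Pax5Wt enrichment in the trend was not tested.

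At the strongest region, chr15:36608942-36610021 at the promoter of Pabpc1 (the cytoplasmic poly(A) binding protein), fold enrichment was 37.5 and 40.2 with Pax5Wt, 25.9 and 28.5 with K198Q and 31.7 and 39.4 with K198R. K198Q was thus below the other forms in both lists. At chr7:98488118-98488732, at a promoter of Lrrc32 (a receptor for latent TGF-beta), the values were 18.7 and 24.8, 26.9 and 31.7, and 17.5 and 47.5. Here both K198Q values lay above both Pax5Wt values. Among the 15 regions picked as the highest for K198Q relative to Pax5Wt, 10 lay at promoters, among them that of Atg4b (an autophagy protease). At chr1:93754565-93755329 the values were 5.24 and 6.67 with Pax5Wt, 8.66 and 9.01 with K198Q and 13.1 and 9.92 with K198R. At the edge of the rule, a region at chr5:103693105-103693799 counted because its K198Q peaks shared 22 bp, and a region at chr19:6979498-6980374 did not because its K198Q peaks were 15 bp apart.

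The shared regions lay at promoters about as often as the regions of Pax5Wt with K198R, and more often than those of Pax5Wt alone or K198R alone. Of the 2279 regions on assembled chromosomes, 1161 (50.9%, 95% Wilson interval 48.9% to 53.0%) had an edge within 1 kb of the start of a protein-coding transcript or covered it, 543 (23.8%) in introns, 511 (22.4%) between genes and 64 (2.81%) in exons. The promoter share was 51.8% (50.2% to 53.3%) for Pax5Wt with K198R, 45.8% (44.0% to 47.6%) for K198R alone, 36.7% (34.3% to 39.1%) for Pax5Wt alone and 46.7% (45.7% to 47.8%) over all other regions. Measured from the summit in place of the edge, the shares were 49.8% for the shared regions and 45.9% for all other regions. Intervals here and below cover counting error only. Outside promoters the median distance from the summit to a start site was 21560 bp. The X chromosome held 10 shared regions, 0.438% of them, against 0.864% of all regions.

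The shared regions carried the Pax5 core more often than each of the 3 other large classes of regions. In windows of 300 bases around the summit, 357 of 2279 (15.7%, 14.2% to 17.2%) held GCGTGAC or GCATGAC on either strand. The share was 11.3% (10.3% to 12.3%) for Pax5Wt with K198R, 10.7% (9.31% to 12.4%) for Pax5Wt alone and 8.34% (7.40% to 9.38%) for K198R alone. It was 10.2% (9.55% to 10.8%) over all other regions, which include the 3 small classes with K198Q, not counted on their own. Windows centred 1 kb from the shared summits held it in 2.63% and the 32817 promoters of the RefSeq table, which have the same length, in 4.23%. These sets differ in composition, with a median of 59.7% G and C and 5 CpG per 100 bases in the shared windows, 46.3% and 1.33 in those 1 kb away and 52.7% and 2.33 in the reference promoters, and the part of this in the motif shares here and below was not tested. The count depended on the letters searched, since the last 6 letters alone, CGTGAC or CATGAC, were in 33.8% of the shared windows, in 14.5% of those 1 kb away and in 17.8% of promoters. Of the shared windows with a 7-letter core, 337 held 1, 19 held 2 and 1 held 3.

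The cores were densest at the summits. Of 594 cores within 500 bases of a shared summit, 250 (42.1%) were within 50 bases of it. Per 100 regions, 5.79 cores fell in the 50-base bin before and 5.09 in the 50-base bin after the summit, against 1.14 in the bin from 150 to 100 bases before it. The Pax5Wt with K198R regions had the same shape at a lower height, with 36.1% of their cores within 50 bases.

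**Figure D2:**
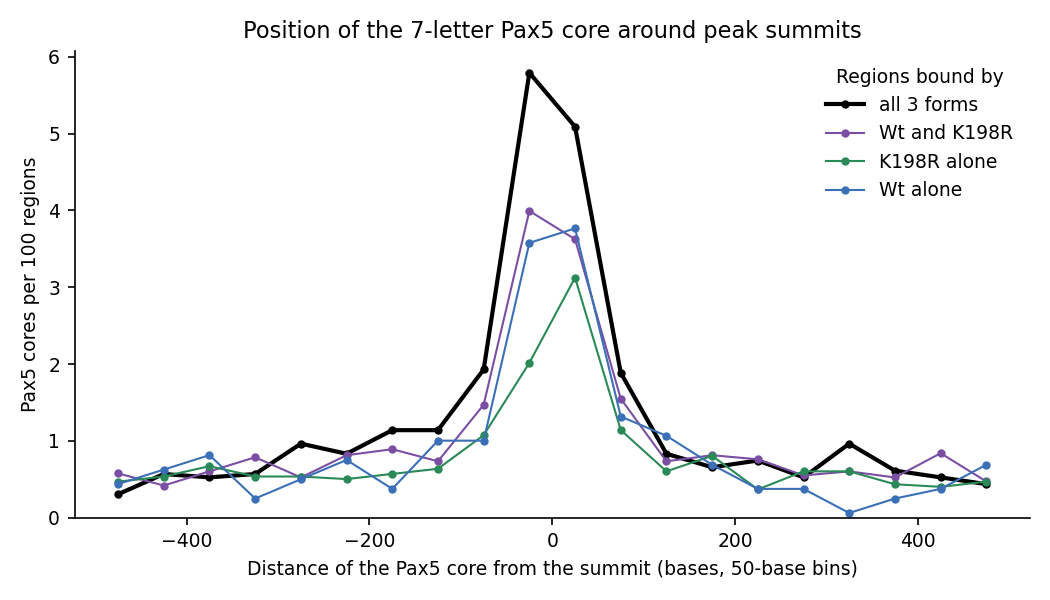
Number of 7-letter Pax5 cores per 100 regions (y axis) by distance from the peak summit in bins of 50 bases (x axis), for regions bound by all 3 forms and for the other large classes. All classes peak at the summit, and the regions bound by all 3 forms reach 5.79 cores per 100 regions.

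The spelling of the core went with the place. In promoter regions GCGTGAC was in 12.1% and GCATGAC in 2.93% of the windows, while outside promoters the shares were 8.23% and 8.59%. Promoter windows were richer in G and C, with a median of 67.3% against 52.2%. The excess over the other regions was mostly in GCGTGAC. Over all shared windows it was in 10.2% against 5.36% of the other regions, and GCATGAC was in 5.70% against 4.96%. Pax5Wt with K198R regions that had a K198Q peak in 1 list held a core in 11.9% (10.5% to 13.5%) and those with no K198Q peak in 10.7% (9.47% to 12.2%). Of 4 equal groups ranked by the lowest enrichment over the 6 lists, the highest held a core in 18.5% (15.5% to 21.9%) and the others in 14.4% to 14.9%.

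**Figure D3:**
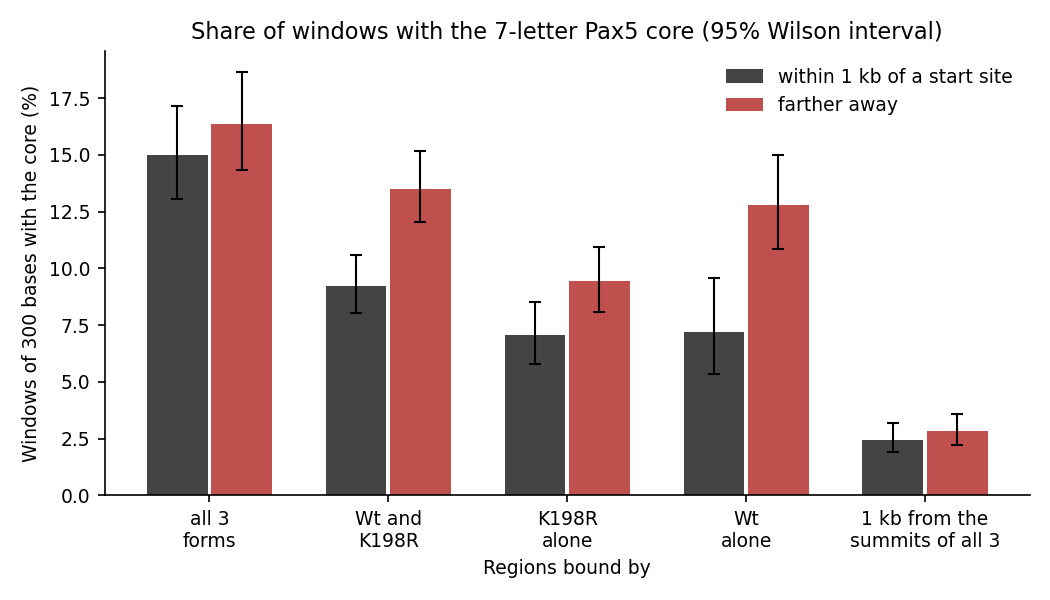
Share of 300-base windows with a 7-letter Pax5 core (y axis, percent) by class of regions (x axis), for regions within 1 kb of a start site and farther away, with 95% Wilson intervals. Regions bound by all 3 forms reach 14.99% at promoters and 16.4% elsewhere, and windows 1 kb from their summits reach 2.45% and 2.82%.

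Of the other motifs searched on both strands, the GC box GGGCGG, bound by SP factors, was in 45.2% of the shared windows, 9.06% of those 1 kb away and 35.6% of the reference promoters. The E-box, CAGGTG or CAGCTG, was in 41.9%, 31.1% and 33.0%. PU.1 GAGGAAG was in 16.4%, 11.0% and 13.6%, and ETS CCGGAAG in 11.3%, 2.24% and 8.86%. RUNX TGTGGTT was in 9.61%, 6.78% and 5.27%, EBF1 in 3.82%, 0.856% and 0.905%, and CTCF in 4.26%, 2.48% and 2.43%. Outside promoters RUNX reached 15.6% and EBF1 5.90%. In the regions outside this group the same motifs had similar shares. PU.1 was in 16.6%, the E-box in 42.2% and RUNX in 9.64% of the other regions.

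Genes of the B lineage lists had a shared region more often than protein-coding genes in general. Of all 21864 protein-coding genes, 5.91% had a shared region within 1 kb of a start site, 8.76% had one there, in the gene body or within 5 kb of the start, and 24.3% had a region of any class at the promoter. Of 26 genes known to be activated by Pax5, 9 (34.6%) had a shared region within 1 kb of a start site (among them Cd79a, Blnk, Cd72, Cd22, Spib, Rag1, Rag2 and Pou2af1) and 15 (57.7%) had one in the wider sense. A region of any class lay at the promoter of 19 (73.1%), so binding at these genes was not limited to the shared regions. Of 12 genes of the pre-B cell receptor and surrogate light chain, 5 (41.7%) had a shared region within 1 kb of a start site and 10 (83.3%) had one in the wider sense. In the wider sense the same region can count for more than 1 gene. Of 12 genes known to be repressed by Pax5 only Notch1, a receptor that directs progenitors to the T lineage, had one, in its body. Of 13 genes of the IL-7 receptor pathway 3 had one, of 24 cell cycle genes 1, of 38 cytosolic ribosomal proteins 3 and of 12 T cell markers 1 (Tcf7). None of 7 NK cell, 8 myeloid, 5 erythroid and 7 OP9 stroma markers had one. Known targets were put on the first list because Pax5 is known to bind or regulate them, so it is not independent of Pax5 binding. Of 20 genes that the study names for its peaks, 4 had a shared region, among them Rag1 at its promoter and Vpreb1 within 5 kb of its start. The regions counted for Vpreb1 lay at the promoters of Igll1 and Top3b and, between genes, nearest to the start of Igll1. No region of any class lay within 1 kb of the start of Vpreb1. Actr6, Foxo1, Ikzf1 and Cxcr4 had a promoter region of K198R alone, Nus1 of Pax5Wt alone, and Myc and Mycn of Pax5Wt with K198R.

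Blnk, which codes for an adaptor of the pre-B cell receptor, carried 4 shared regions. At its promoter, chr19:40993743-40994487, fold enrichment was 15.9 and 23.5 with Pax5Wt, 10.1 and 12.05 with K198Q and 18.3 and 21.3 with K198R. In its intron, chr19:40962952-40963428, the values were 18.2 and 26.5, 16.6 and 14.2, and 20.4 and 23.1. K198Q was lowest at both places. At the other 2 regions K198Q overlapped Pax5Wt. In a second intronic region, chr19:40970253-40970950, K198Q had 3.24 and 7.98 and Pax5Wt 7.30 and 7.17, and upstream, at chr19:40995616-40996559, K198Q had 5.04 and 7.17 and Pax5Wt 10.7 and 5.91. At the promoter of Igll1, a surrogate light chain gene, chr16:16863667-16864429 had 33.4 and 20.5 with Pax5Wt, 14.7 and 25.1 with K198Q and 29.2 and 28.6 with K198R, so K198Q and Pax5Wt overlapped.

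The RNA-seq tables were used to ask how the genes with a shared region at their promoter were expressed. The 1161 promoter regions gave 1292 protein-coding genes, since 140 regions lay at the starts of more than 1 gene. Of these, 1242 passed the filter on low values in the Pax5-/- table (96.6% of the 1286 listed there) and 1244 in the table of Sirt7-/- cells. Over protein-coding genes in general, 57.8% and 80.8% of those listed passed. Their median level, as the mean of the compared groups, was 1596 normalized counts for Pax5Wt against EV, beside 775 over all genes tested. The libraries summed to 28865461 to 30520853 normalized counts in the Pax5-/- table and 27814214 to 30160880 in the other. Some of the genes named below also had a promoter region of another class. It was of K198R alone for Rag1, Zfpm1, Dusp3 and Cfap97d1 and of K198Q with K198R for Cd79a. For Gm266 and Lrrc32 it was of Pax5Wt alone. The part of these regions in the RNA values was not tested.

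Pax5 itself, which has no shared region, checks the labels. In Pax5-/- cells it had 2201 and 2103 normalized counts with EV, 6458 and 6152 with Pax5Wt, 8918 and 8963 with K198Q and 21162 and 16610 with K198R. The groups did not overlap. Pax5 mRNA was 1.57 higher on the log2 scale with K198R than with Pax5Wt (limma, SE 0.12, adjusted p = 0.0029). The amount of vector mRNA and the form thus moved together in every comparison of K198R in Pax5-/- cells below, and the part of this amount was not tested. Reads with EV were above 0 although the genotype is Pax5-/-, and the table does not show which part of the transcript they cover. Sirt7 had 325 to 407 normalized counts in the Sirt7-/- libraries and 1324 and 905 in the Wt libraries.

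Most genes with a shared promoter region did not change beyond the spread of the libraries. Calls in Pax5-/- cells required an adjusted p under 0.05 together with a log2 fold change of 1.5 or more in size. With this fold limit the share that rose was close to that of all genes. At an adjusted p under 0.05 alone it was higher, with 2.74%, 1.37% and 5.64% for Pax5Wt, K198Q and K198R against EV, beside 2.25%, 0.869% and 3.87% of all genes. The counts that follow use the fold limit. With Pax5Wt against EV, 15 of 1242 rose (1.21%, against 1.26% of all 13345 genes tested) and 0 fell (0.262% of all genes). Without Pax5Wt replicate 2 the count was 9. With K198Q against EV, 9 rose (0.725%, against 0.629%) and 0 fell (0.03%). Without K198Q replicate 1 or 2 the count was 4 or 5. With K198R against EV, 20 rose (1.61%, against 1.45%) and 12 fell (0.966%, against 3.13%). The share that fell with K198R was thus lower than over all genes. It was 0.653% for genes with a promoter region of Pax5Wt with K198R and 4.78% for protein-coding genes with no region at the promoter, so a low share was not limited to the shared regions. These 3 comparisons share the EV libraries. At an unadjusted p under 0.05 the counts were 175, 87 and 284 genes, or 14.1%, 7.005% and 22.9%, beside 14.4%, 7.86% and 22.9% of all genes.

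Between the forms few of these genes were called. K198Q against Pax5Wt gave 0 in limma (0% of all genes higher and 0.0225% lower), with 27 of 1242 genes (2.17%, against 3.46% of all genes) at an unadjusted p under 0.05. K198R against Pax5Wt gave 3 higher (0.242%, against 0.285%) and 8 lower (0.644%, against 1.31%, and 0.452% for genes with a promoter region of Pax5Wt with K198R). This count of 11 rested on single libraries, since it was 0 without Pax5Wt replicate 2, 3 without Pax5Wt replicate 1, 6 without K198R replicate 2 and 7 without either K198Q replicate. The median log2 fold change of the promoter-bound genes was 0.04 in this comparison and 0.01 over all genes.

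**Figure D4:**
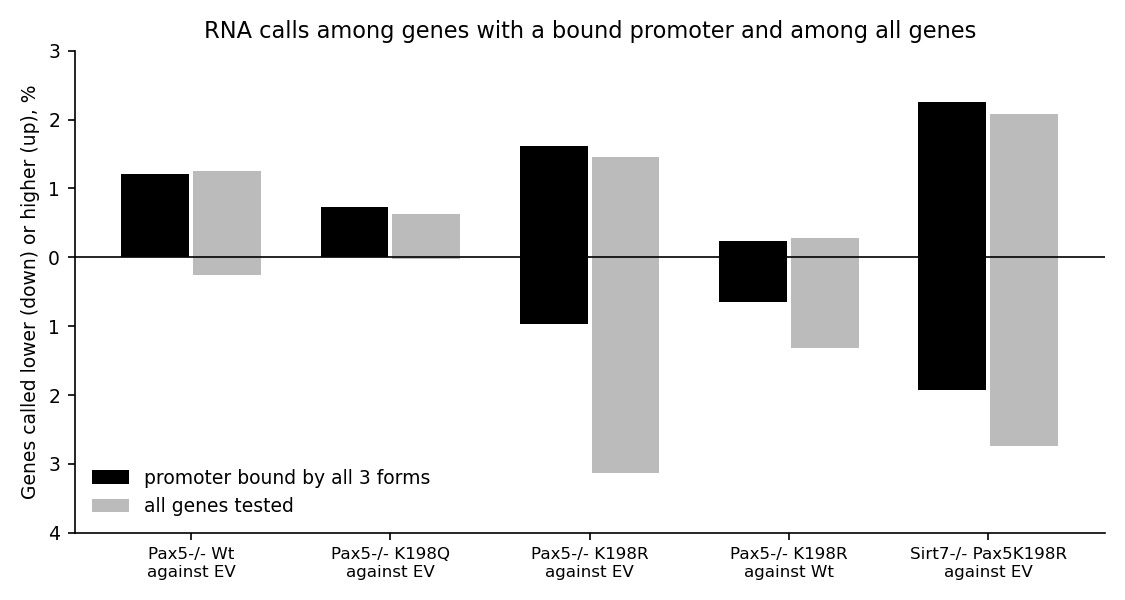
Percent of genes called higher (upward bars) or lower (downward bars) among genes with a promoter region bound by all 3 forms (black) and among all genes tested (grey), for the 5 comparisons with the most called genes (x axis). In Pax5-/- cells with K198R, 0.966% of the promoter-bound genes and 3.13% of all genes were called lower, while the upward bars of both groups are alike.

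Blnk and Cd79a were among the genes that rose. Of the 10 genes of the pre-B cell receptor and surrogate light chain with a shared region, all tested, 3 rose with Pax5Wt, 2 with K198Q and 3 with K198R (1.26%, 0.629% and 1.45% of all genes tested rose), and 0 fell. Blnk had 2.56 and 4.90 normalized counts with EV, 915 and 954 with Pax5Wt, 547 and 397 with K198Q and 3586 and 3133 with K198R. All 4 groups were apart, in the order EV, K198Q, Pax5Wt, K198R. The log2 fold changes against EV were 7.67, 6.67 and 9.51 (SE 0.27, limma, adjusted p = 5.13e-05, 0.00015 and 9.46e-06), and depend on the pseudocount because EV was near 0. K198R was above Pax5Wt by 1.84 (adjusted p = 0.015). Cd79a, the signalling chain of the B cell receptor, had 2282 and 2247, 7561 and 9491, 5321 and 5140, and 13596 and 14080. It rose by 1.90 with Pax5Wt and 2.61 with K198R (adjusted p = 0.000245 and 2.65e-05), while the change with K198Q was 1.21 (adjusted p = 0.00365) and below the fold limit.

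Rag1 and Rag2, the recombinase that joins immunoglobulin gene segments, moved alike. Rag1 had 1443 and 2289 normalized counts with EV, 8938 and 8704 with Pax5Wt, 7230 and 5909 with K198Q and 18291 and 18398 with K198R. It rose by 2.28, 1.85 and 3.33 on the log2 scale (adjusted p = 0.00134, 0.00657 and 0.000137), and again no group overlapped another. Rag2 rose by 1.69 with Pax5Wt and 2.54 with K198R, and changed by 1.27 with K198Q (adjusted p = 0.044), below the fold limit. Igll1 changed by 1.14, 0.90 and 1.23 with adjusted p = 0.00662, 0.0342 and 0.00225, also below the fold limit. Cd22, an inhibitory receptor with strong Pax5Wt binding at its promoter (23.6 and 24.5), changed by 0.40 with Pax5Wt (adjusted p = 0.492), 0.13 with K198Q (adjusted p = 1) and 1.10 with K198R (adjusted p = 0.0179), below the fold limit. Lyn, a kinase of the receptor with a shared promoter region, changed by -0.58, -0.37 and -0.47 (adjusted p = 0.288, 0.898 and 0.273).

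Over the 15 Pax5-activated genes with a shared region, all of which were tested, 8 rose with Pax5Wt, 5 with K198Q and 9 with K198R (1.26%, 0.629% and 1.45% of all genes tested), and 0 fell. Their median log2 fold changes were 1.69, 1.21 and 2.54, beside 0.00, -0.01 and 0.01 over all genes. Without K198Q replicate 1 the count with K198Q was 3. The 25 tested genes of the whole list gave 11, 7 and 13 called higher. Among those with a shared region outside the promoter, Ikzf3 (the lymphoid factor Aiolos) had 123 and 127, 627 and 639, 364 and 420, and 1272 and 1201 normalized counts, and rose by 2.33, 1.64 and 3.30. The promoter of Ikzf3 had a region of Pax5Wt with K198R. Bcar3, an adaptor in cell adhesion, rose by 4.75 with K198R, 2.65 above Pax5Wt (adjusted p = 0.0129). Ebf1, the partner of Pax5 in B cell commitment, with a region in an intron, changed by 1.28, 1.02 and 1.34 (adjusted p = 0.0018, 0.00948 and 0.000878) and stayed below the fold limit. Vpreb3, a partner of the surrogate light chain from another of the lists, rose by 2.59, 2.10 and 3.19. For Vpreb1 and Vpreb2, copies of almost the same sequence, the split of reads is uncertain and no value is given.

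**Figure D5:**
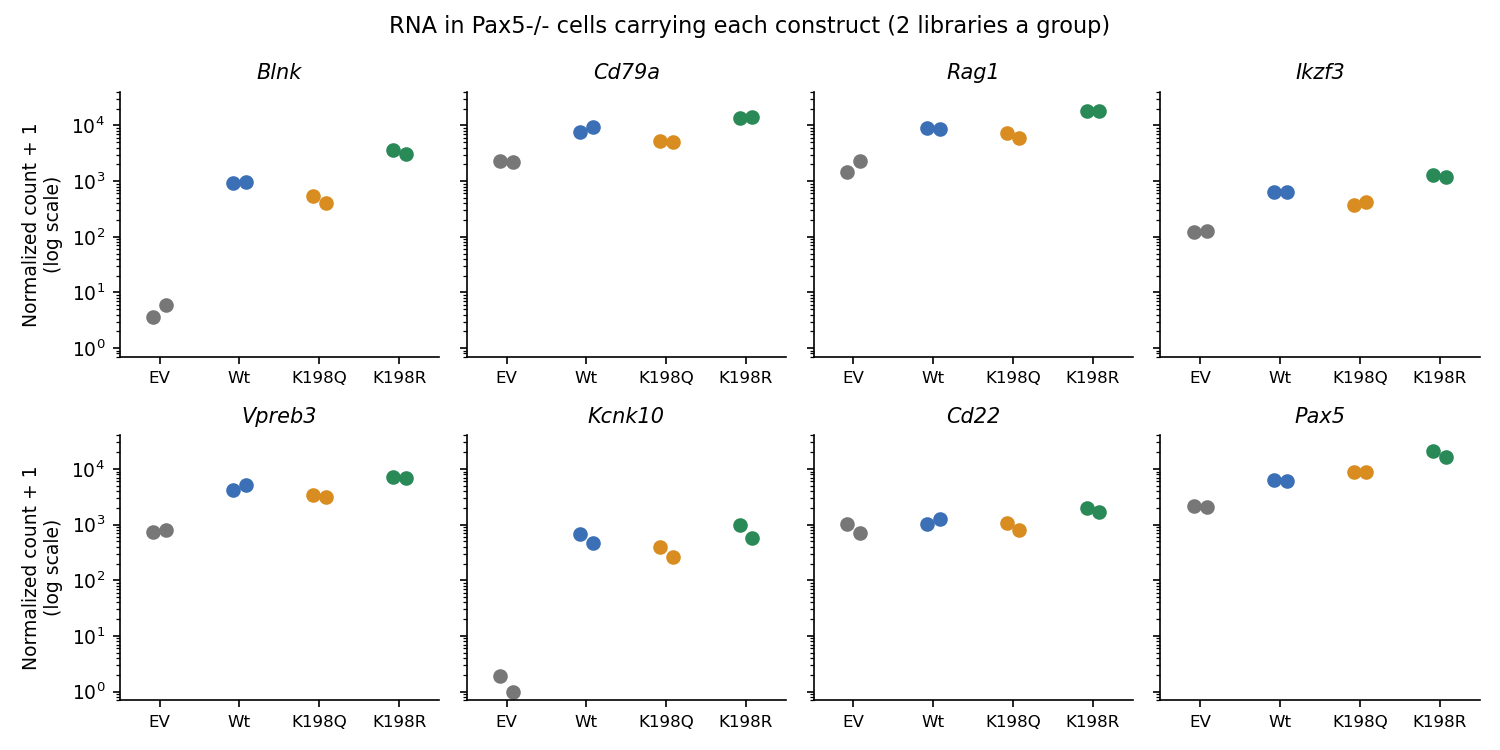
Normalized counts plus 1 (y axis, log scale, the same in every panel) in the 2 libraries of each Pax5-/- group (x axis), 1 point a library, for 7 genes with a region bound by all 3 forms and for Pax5. For Blnk, Cd79a, Rag1, Ikzf3 and Vpreb3 the groups follow the order EV, K198Q, Pax5Wt, K198R without overlap, and for Cd22 K198Q overlaps both EV and Pax5Wt.

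Further genes with a shared promoter region were near 0 without Pax5. Kcnk10, a potassium channel gene, had 0.904 and 0 normalized counts with EV, 671 and 462 with Pax5Wt, 388 and 260 with K198Q and 998 and 584 with K198R. Gm266 was listed at 0 in both EV libraries and had 56.2 and 85.5, 35.7 and 29.4, and 87.1 and 120 with the forms. Gm266 followed the order of Blnk without overlap, while for Kcnk10 the K198R and Pax5Wt libraries overlapped. A different order was seen for Hps1. Hps1, a gene of lysosome-related organelles, had 49.4 and 44.0 with EV, 191 and 259 with Pax5Wt, 242 and 214 with K198Q and 41.5 and 25.9 with K198R. It was high with Pax5Wt and K198Q only, and was lower with K198R than with Pax5Wt (log2 fold change -2.72, adjusted p = 0.00734). Tcf7, a T cell factor, had a shared region in its body and a promoter region of Pax5Wt with K198R. Its counts were 246 and 284 with Pax5Wt, 160 and 167 with K198Q, 71.9 and 51.4 with K198R and 38.9 and 67.4 with EV. It rose with Pax5Wt against EV (log2 fold change 2.34) and was lower with K198R than with Pax5Wt (-2.10). Its change with K198Q against EV, 1.65, was not called.

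Some of these genes fell with K198R. Cul7, a ubiquitin ligase scaffold, had 1376 and 1240 normalized counts with EV, 1342 and 1559 with Pax5Wt, 1129 and 1289 with K198Q and 353 and 191 with K198R. The K198R libraries lay below all others, and the log2 fold change was -2.33 against EV (adjusted p = 0.00203) and -2.47 against Pax5Wt (adjusted p = 0.00601). Zyx, which codes for a focal adhesion protein, changed by -2.43 against EV (adjusted p = 0.00242) and Cd276, an immune checkpoint ligand, by -2.27 (adjusted p = 0.00537). Optn, an autophagy receptor, was lower with K198R than with Pax5Wt (-2.25, adjusted p = 0.0108), as was Pcolce2, an enhancer of procollagen processing (-1.86, adjusted p = 0.00857). Pgf, a growth factor of the VEGF family, and Tbc1d9 were higher (2.67 and 1.89, adjusted p = 0.0418 and 0.0124). Notch1 changed by -1.08 with K198R against EV (adjusted p = 0.00226), below the fold limit.

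The genes whose promoters held 1 of the 10 regions with the highest enrichment in their weakest list were not called in Pax5-/- cells. Pabpc1 had 63711 and 69560 normalized counts with EV and 59166 and 76025 with K198R, and the log2 fold changes against EV were 0.01, -0.01 and 0.01. Dusp3, Socs5, Ruvbl1 and Lrrc32 had adjusted p-values of at least 0.42 against EV, and Cfap97d1 was listed at 0 in every library. The calls were also set beside the enrichment of the region and its core, with few calls in each part. Of 4 equal groups of genes ranked by enrichment, the highest had 1.94% that rose and 0.647% that fell with K198R against EV, and the lowest 1.28% and 1.28%, while with Pax5Wt 1.29% and 1.28% rose. Of the 187 genes whose promoter region held a core, 1 rose with Pax5Wt (0.535%), and of the 1055 others 14 rose (1.33%). With Pax5K198R in Sirt7-/- cells, described below, the shares leaned the other way, with 6 of 189 genes with a core that rose (3.17%) and 22 of the 1055 others (2.09%), and 2.65% and 1.80% that fell. These counts are too few to give an order.

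Markers of other cell types were read in the same libraries, since fewer cells of a type and less RNA per cell cannot be told apart in bulk samples. The summed normalized counts of 13 B lineage markers were 64726 and 72603 with EV, 101047 and 106232 with Pax5Wt, 93247 and 90295 with K198Q and 125150 and 129014 with K198R. The most abundant of them, Cd93, went the other way, with 24224 and 27965, 20493 and 20948, 21588.5 and 22592, and 14389 and 16769. With K198R against EV, 5 of 14 B lineage markers were called higher and 0 lower. The summed NK markers, led by Il2rb, were 1468 and 1522, 455 and 478, 869 and 848, and 282 and 170, with Eomes, Gzmb and Ncr1 below 1 on average. The 12 T cell markers, led by Lck, summed to 4602 and 5676, 4388 and 4999, 4596 and 4795, and 3248 and 3862, with Cd3e and Bcl11b below 1 on average. The 8 myeloid markers, led by Itgam, summed to 1063 and 807, 506 and 525, 773 and 777, and 669 and 442, with Csf3r and Elane below 1 on average. With K198R against EV, 3 of the 7 T cell markers tested fell and 0 rose (median log2 fold change -0.97), 2 of 5 myeloid markers fell and 1 rose (-1.87), and 2 of 4 NK markers fell (-2.13). Of all genes tested in this comparison 3.13% fell and 1.45% rose. The T cell and NK sums were thus lowest with K198R. The 7 OP9 stroma markers, led by Fn1, summed to 3124 and 4151 with EV, 2468 and 6402 with Pax5Wt, 2896 and 5003 with K198Q and 2895 and 4107 with K198R, so that these groups overlapped. Against EV, 1 of these 7 was called lower with Pax5Wt, 0 with K198Q and 1 with K198R, and 0 were called higher. K198R against Pax5Wt also gave 1 lower. The part of these shifts in the calls above was not tested.

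In Sirt7-/- cells, which had Pax5 of their own, the delivered forms were compared with EV at an adjusted p under 0.05 alone. With Pax5Wt, 0 of 1244 genes with a shared promoter region were called (0% of 13651 genes higher and 0.0366% lower), with 84 (6.75%, against 9.91%) at an unadjusted p under 0.05. With Pax5K198R, 28 rose (2.25%, against 2.09% of all genes) and 24 fell (1.93%, against 2.74%). Both comparisons share the EV libraries. With the replicate number as a block the counts were 12 (0.965%, against 1.96% of all genes) and 125 (10.05%, against 11.6%). The count of 52 without a block was 2 without Sirt7-/- EV replicate 2, 3 without Sirt7-/- EV replicate 1, 3 without Pax5K198R replicate 2 and 14 without Pax5K198R replicate 1. Pax5 had 25995 and 37114 normalized counts with EV, 43024 and 43260 with Pax5Wt and 38690 and 45426 with Pax5K198R. The T cell markers, led by Thy1 and with Cd3d and Cd8a below 1 on average, summed to 3030 and 1757 with EV, 1264 and 586 with Pax5Wt and 909 and 557 with Pax5K198R, with 2 of 6 tested markers lower with Pax5K198R and 0 with Pax5Wt. Of 14 B lineage markers, 3 were lower and 1 higher with Pax5K198R against EV (median log2 fold change -0.28). Of 4 tested myeloid markers, 1 was lower and 0 were higher. With Pax5Wt 0 markers of these 2 lists were called. The OP9 stroma markers, led by Fn1, summed to 7270 and 11441.5, 11432 and 29073, and 8913 and 21927, with 0 of 7 called and median log2 fold changes against EV of 0.96 with Pax5Wt and 0.69 with Pax5K198R. The part of these shifts in the calls was not tested.

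Zfpm1, which codes for the GATA cofactor FOG1, had a large fall. It had 2537 and 2418 normalized counts in Sirt7-/- cells with EV, 899 and 1195 with Pax5Wt, 113 and 111 with Pax5K198R and 5556 and 4836 in Wt cells with EV. The groups did not overlap, and the log2 fold change of Pax5K198R against EV was -4.46 (SE 0.15, limma, adjusted p = 4.05e-05). In Pax5-/- cells the gene had 3009 and 3070 with EV and 4815 and 5740 with K198R. Phactr2 and Tspan2 changed by -2.23 and -3.32 (adjusted p = 0.0202 and 0.0493). Arl4c, a small GTPase, had 492 and 488 with EV and 1333 and 1872 with Pax5K198R and rose by 1.69 (adjusted p = 0.01). Lrrc32, at 1 of the most enriched regions, had 21.2 and 25.1 with EV, 25.3 and 47.1 with Pax5Wt and 91.6 and 168 with Pax5K198R and rose by 2.38 (adjusted p = 0.0326). Of 13 named calls in this table, 11 were lost without either Sirt7-/- EV library or without Pax5K198R replicate 2. Blnk had a log2 fold change of -0.47 (adjusted p = 0.0831), and Cd79a rose by 0.57 (adjusted p = 0.022). Vpreb3 fell, from 11064 and 11028 to 3822 and 4876 (-1.36, adjusted p = 0.00569).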

How the data were processed

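Chromatin immunoprecipitation (6 peak lists) and RNA-seq (2 tables of 8 libraries) were used. Reads were aligned by the authors to mm10 with Bowtie2, and peaks were called per replicate over input with MACS2. The deposited lists give fold enrichment over input, a ratio, and −log10 of the q-value. The authors quantified RNA with Salmon and deposited counts per gene normalized with the median-of-ratios of DESeq2, a signal from which whole reads could not be recovered. The read depth of these libraries is thus not shown by the files.

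Regions were built with Python 3.11.15 and pandas 2.3.3 and placed on GENCODE M21 (GRCm38). Regions with an edge within 1 kb of a start site were called promoters. Sequence came from the RefSeq copy of GRCm38 and the RefSeq promoter table, read with pysam 0.24.0. The 2 shared regions on unplaced contigs were left out of these steps. The 6-letter words, the distance from the summit and the Pax5-activated alternatives were added after seeing the data.

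Genes reaching 10 normalized counts in 2 or more of 8 libraries were kept and fitted on log2(normalized count + 1) with limma 3.58.1 in R 4.3.3, all 4 groups of a table in 1 fit, with a variance trend and Benjamini-Hochberg adjustment. Fold changes are on this scale and understate those of low genes. An exact permutation test of 2 against 2 libraries cannot go below p = 0.333. In both tables all 6 pairs of groups had correlated deviations of same-numbered libraries (r of 0.264 to 0.383 and 0.156 to 0.428, each above 0.1). The numbers were taken to pair the libraries in an alternative fit only, with the replicate number as a block. All counts and p-values come from the fit without this block, which ignores the pairing, unless the block is named. The pairing comes from the data. The study states that replicates were made on different days, but neither it nor the labels give which libraries shared a day. The fits and overlaps were tested on simulated data.

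The genes named are those at the 10 regions with the highest value in their weakest list, genes of the fixed lists with a region, up to 4 called genes with the largest rise and 4 with the largest fall per comparison among promoter-bound genes whose groups did not overlap, the genes the study names for its peaks, and Pax5. Some of them are not reported here. The 15 regions highest for K198Q were picked after their values were seen. Members, lists and tests were chosen with earlier results of these data known. The sorted pro-B and pre-B libraries were not used here.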

Additional observations from a re-analysis of the deposited data

Results flagged for a closer look

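Kcnk10 went in opposite directions in the tables. K198R against EV gave a log2 fold change of 9.11 in Pax5-/- cells, where both EV libraries were near 0, and of -2.07 in Sirt7-/- cells, where EV had 499 and 267 normalized counts and Pax5K198R 107 and 68.9. Every library of K198R lay above those of EV in the first case and below them in the second. The difference was not tested, since the tables were normalized separately. Vpreb3, with a shared region within 5 kb, did the same, with 3.19 in Pax5-/- cells and -1.36 in Sirt7-/- cells and no overlap with EV in either, and this difference was not tested either. Of 3 promoter-bound genes called with K198R in both tables, 1 went in opposite directions, and of 75 genes of any kind 36 did. Calls needed an adjusted p under 0.05 in both tables and, in Pax5-/- cells only, also a log2 fold change of 1.5 or more in size.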

How the results depend on the processing

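The number of regions bound by all 3 forms stayed within 1.5 times of 2281 in all 9 alternatives and was 2293 to 3273 when 1 list was left out. Leaving out 1 list keeps every peak of the other list of that form, with no demand for agreement, so it mainly can raise the number. Without K198Q replicate 1 or 2 the number was 3273 or 3100. The share at promoters was 48.3% with a 50% reciprocal overlap between replicates, 58.1% within 5 kb, 54.4% with the starts of all annotated genes and 50.6% to 52.3% with 1 list left out. The share with a Pax5 core was 10.0% in 100 bases, 21.2% over the whole region, 33.8% with the 6-letter core, an alternative added after seeing the data, and 14.6% to 15.8% with 1 list left out. With an adjusted p alone the promoter-bound genes called were 41, 17 and 112 for Pax5Wt, K198Q and K198R against EV and 27 for K198R against Pax5Wt (3.30%, 1.37%, 9.02% and 2.17%, against 3.25%, 0.922%, 9.92% and 2.87% of all genes). With K198R against EV, 5.64% rose and 3.38% fell, against 3.87% and 6.05% of all genes. Without a filter on low values they were 7 for K198R against Pax5Wt and 30 for Pax5K198R in Sirt7-/- cells, and with the fold limit added there 12. With 1 library left out the counts were 9 to 15, 4 to 10, 23 to 36, 0 to 0 (K198Q against Pax5Wt), 0 to 13 (K198R against Pax5Wt), 0 to 0 (Pax5Wt in Sirt7-/- cells) and 2 to 53 (Pax5K198R in Sirt7-/- cells). A group left with 1 library is then assumed to vary like the others.

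With the pairing of replicate numbers as a block the counts were 17, 10 and 33 against EV, 0 for K198Q and 13 for K198R against Pax5Wt, and 12 and 125 in Sirt7-/- cells. The shares of all genes called in these 7 comparisons, in the same order, were 2.44%, 1.05%, 5.70%, 0.105%, 2.44%, 1.96% and 11.6%. Of 759 values of called named genes over all alternatives, 644 kept their call, 115 lost it and 0 reversed. The block and a pseudocount of 5 lost 0 calls. The causes were not tested. With 2 libraries a group the precision is limited. Peak lists do not show read depth, but the study gives the clean reads of each ChIP library, which were close to equal across the forms.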
